A study of Homo sapiens with 8 samples.

Results

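The genes described here are the immediate early genes and the feedback genes of the mitogen-activated protein kinase (MAPK) pathway in CAKI1 cells, an established human renal carcinoma line. The rule took every row whose gene symbol equals 1 of 38 chosen names, and 36 of the 38 matched a row among the 16782 genes. *EGR2* and *EGR3* matched none and were not analysed here. All 36 passed the filter on low values, 22 of them with a mean of at least 10 and 14 with a mean under 10 in CPM, the reads of a gene scaled to a common library size.

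RNA was measured in 4 control samples, left unstimulated, and in 4 samples treated for 24 h with 5 µg/mL of hLcn-2, the holo form of lipocalin-2. Lipocalin-2 is a secreted protein that binds iron through small chelators, and its holo form carries the iron. Both groups had been kept without serum for 24 h before the stimulation. All samples come from 1 cell line, and the 24 h time point is the only one analysed here.

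Immediate early genes are transcribed within minutes of a growth factor, serum or stress signal, without the need for new protein, and most of their mRNAs are short-lived. The kinase ERK switches many of them on by phosphorylating ETS-type partners of the serum response factor SRF, which sits on a promoter element called the CArG box. Several of the induced genes then act back on the pathway: dual-specificity phosphatases (DUSP) dephosphorylate the MAP kinases, Sprouty and SPRED proteins dampen the signal upstream of RAF, and ZFP36 proteins bind AU-rich elements in the 3′ untranslated region and send the mRNA to decay.

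Promoters of *EGR1*, *SRF*, *JUND* and *DUSP1* are shown first, because they hold the CArG box or the cyclic AMP response element, both known elements of immediate early promoters. RefSeq promoters of assembly GRCh38.p14 were searched for 27 of the 36 genes, in the 250 bases before each start and on both strands. Promoters of the remaining genes were not searched, which does not mean that RefSeq lists none for them. The motif counts below therefore cover the 27 genes only. The capitals mark the CArG boxes, each a run of A or T between CC and GG, 2 each in *EGR1* (chr5:138465349-138465430, + strand) and *SRF* (chr6:43171214-43171268, + strand), and the cyclic AMP response element TGACGTCA in *JUND* (chr19:18281790-18281847, - strand) and *DUSP1* (chr5:172771288-172771345, - strand). Each is read in the direction of the gene.
EGR1 CArG boxes: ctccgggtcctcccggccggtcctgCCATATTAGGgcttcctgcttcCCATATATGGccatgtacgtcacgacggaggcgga
SRF CArG boxes: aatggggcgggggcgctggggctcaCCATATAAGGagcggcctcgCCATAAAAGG
JUND response element: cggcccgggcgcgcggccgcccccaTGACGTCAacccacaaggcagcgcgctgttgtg
DUSP1 response element: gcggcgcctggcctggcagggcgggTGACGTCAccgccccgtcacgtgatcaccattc

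A CArG box was found in 2 of the 27 genes, against 1.16% of 35116 RefSeq promoters. TGACGTCA was found in 3, among them *ZFP36L1*, against 1.65% of all promoters. The ETS motif CCGGAA stood in 7 (*FOSB*, *IER2*, *IER5*, *PHLDA1*, *SPRY1*, *SPRY2* and *SRF*), against 14.5% of all promoters, and the AP-1 motif TGACTCA in 0, against 4.2%. A gene with several listed promoters counts once if any of them holds the motif, so these gene counts and the shares of single promoters have different denominators.

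The second kind of sequence is the AU-rich motif TATTTAT, the letters to which ZFP36 proteins are known to bind in the mRNA. It was searched on the sense strand of the 3′ untranslated region of each gene's canonical transcript (GENCODE 44, GRCh38). It occurred in 26 of the 36 genes, or 72.2%, against 6151 of 19538 protein-coding genes, or 31.5%. Of the tested genes with a 3′ untranslated region, 37.4% held it. At least 2 copies occurred in 41.7% of the 36 against 13.4% of all protein-coding genes. The 3′ untranslated regions of the 36 were also longer than those of all protein-coding genes, with a median of 1501 bases against 1064. Per kilobase they held 0.845 copies against 0.326. The sites of the genes on which the comparison below turns are printed with the motif in capitals: both sites of *FOS* (chr14:75282060-75282088 and chr14:75282084-75282112, + strand), the 3 of *ZFP36* (chr19:39409181-39409209, chr19:39409196-39409224 and chr19:39409221-39409249, + strand), and the single sites of *KLF6* (chr10:3778341-3778369, - strand) and *JUND* (chr19:18279998-18280026, - strand).
FOS first site: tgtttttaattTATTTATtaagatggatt
FOS second site: ggattctcagaTATTTATatttttatttt
ZFP36 first site: aatgggcccttTATTTATgacgactttat
ZFP36 second site: tatgacgacttTATTTATtctaatatgat
ZFP36 last site: tgattttatagTATTTATatatattgggt
KLF6 site: tatgtttctctTATTTATgccttgaggac
JUND site: cgattctgcccTATTTATgtttctactcg

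The 26 genes with the motif had a median log2 fold change of -0.0036 (13 higher and 13 lower with hLcn-2), and the 10 without it one of 0.098 (6 higher and 4 lower). Over all tested genes with a 3′ untranslated region the medians were 0.011 with the motif and 0.0036 without it.

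The libraries held between 1501563 reads (control 4) and 13953090 reads (control 1), so that 3 reads were worth between 0.211 and 1.98 CPM. Mitochondrial genes took 7.37% to 13.8% of the reads, the most in control 3 and hLcn-2 3. Deviations from the group means correlated between same-numbered samples, across genes, at 0.477, 0.590, 0.610 and 0.312 for numbers 1 to 4, and these samples are called pairs below. The 8 of 9 renal epithelial markers with a row summed to 429 to 591 in controls and 415 to 577 with hLcn-2. Of these 8, 3 were higher and 5 lower. Limma called 0 of them without the replicate number as a block and 0 with it, beside 0.0% and 0.282% of all genes tested. With that block edgeR also called 0, beside 1.49% of all genes tested. *PAX8* ranged from 201 to 245. *CDH6* (102 ± 52.0 and 84.3 ± 47.7, SD, n = 4) and *CUBN* (1.87 ± 1.03 and 0.648 ± 0.462) were lower with hLcn-2 in 4 of 4 pairs, with adjusted p-values of 0.158 and 0.282 in limma with the replicate number as a block, and their part in the results below was not tested. Both were named after their values were seen. Of the markers of other cells, the 2 of 5 immune markers with a row summed to at most 4.76, the 1 of 3 fibroblast markers to at most 1.83, and the 3 endothelial markers matched no row.

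At 24 h, 2 of the 36 genes passed a test, and only where the pairs were modelled on the recovered reads. With the replicate number as a block, edgeR called 1.49% of all genes tested and DESeq2 2.02% of those it gave an adjusted p. *ZFP36*, which encodes the mRNA decay factor tristetraprolin, rose from 8.21 ± 3.04 (SD, n = 4) to 15.3 ± 7.97 (SD, n = 4), and *KLF6*, a zinc finger transcription factor, fell from 238 ± 52.3 to 187 ± 33.1. *FOS* was the only one of the 36 whose groups did not overlap (2.78%, beside 1.88% of all genes tested). It measured 1.31 ± 0.453 in controls and 3.86 ± 2.74 with hLcn-2, with few reads behind it. The median log2 fold change over the 36 was 0.024, with 19 higher and 17 lower, beside 0.00083 over all 15593 genes tested. In bulk samples a larger share of cells that express a gene and more RNA per cell cannot be told apart.

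With limma and no pairing, none of the 36 had an adjusted p under 0.05, and 0.0% of all genes tested had one. At an unadjusted p of 0.05 or less it gave 2 of the 36 (5.56%), *FOS* and *JUND*, beside 2.28% of all genes. Unblocked edgeR gave 2 beside 2.08% of all genes, and unblocked DESeq2 gave 3 beside 1.82%. With the replicate number as a block, limma called 0 of the 36 beside 0.282% of all genes, the smallest adjusted p being 0.0900 for *KLF6*. On the recovered reads edgeR with the block called *ZFP36* and *KLF6* (5.56%) beside 1.49% of all genes. DESeq2 with the block called the same 2 among the 22 of the 36 that it gave an adjusted p (9.09%), beside 2.02% of all genes given one. At an unadjusted p of 0.05 or less, limma with the block gave 8 of the 36 (22.2%): *FOS*, *JUN*, *JUND*, *MYC*, *KLF10* and *ZFP36* higher and *KLF6* and *ZFP36L1* lower, beside 12.2% of all genes.

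Within the pairs, 8 of the 36 (22.2%) were higher with hLcn-2 in 4 of 4 pairs, beside 9.93% of all genes: *FOS*, *JUND*, *MYC*, *IER2*, *KLF4*, *KLF10*, *DUSP5* and *ZFP36*. Another 3 (8.33%) were lower in 4 of 4 pairs, beside 10.9% of all genes: *KLF6*, *ETV4* and *ZFP36L1*. Of the others, 13 went one way in 3 of 4 pairs and 12 were split evenly. Non-overlapping groups were found for 1 of the 36 (2.78%), beside 1.88% of all genes. The median difference over the 36 was 0.016, 0.083, 0.078 and 0.084 on the log2 scale in pairs 1 to 4.

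**Figure D1:**
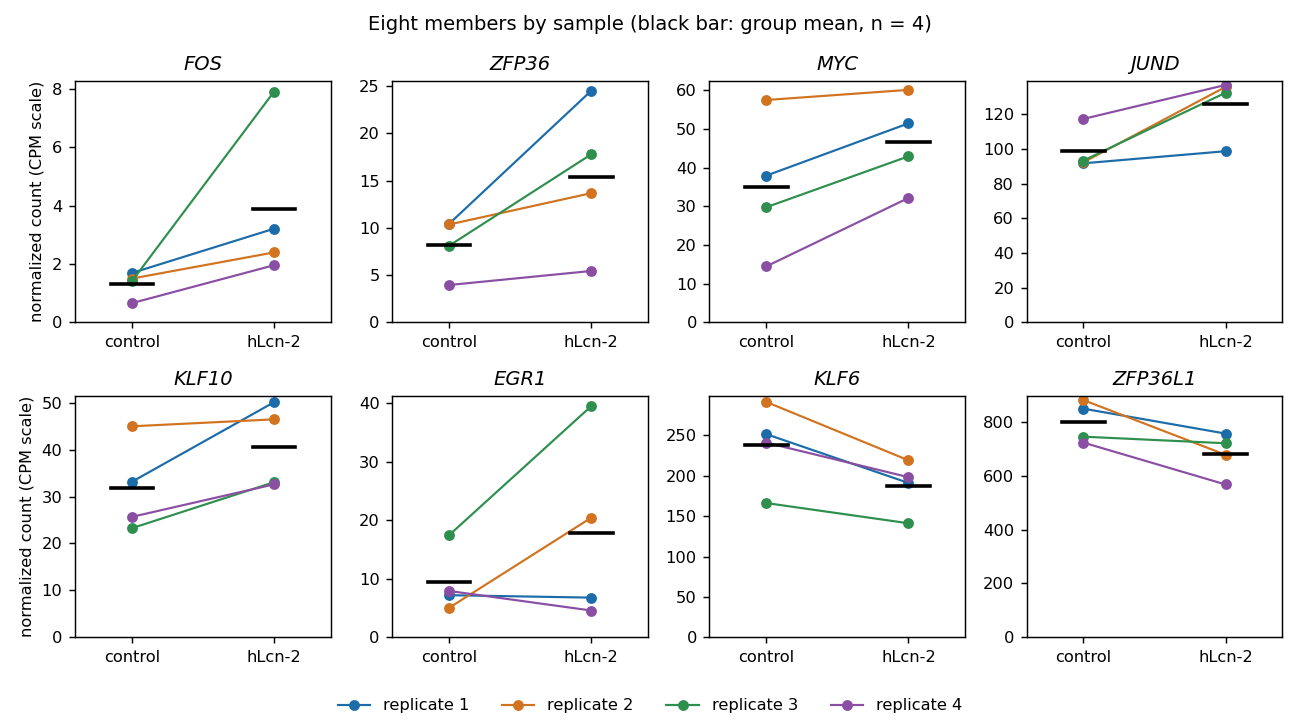
Normalized count on the CPM scale (y axis, from 0) of 8 genes by group (x axis), with a line joining the samples of a pair and a black bar for the group mean (n = 4). All 4 lines go up for FOS, ZFP36, MYC, JUND and KLF10 and down for KLF6 and ZFP36L1, while those of EGR1 go both ways, and only for FOS do the 2 groups not overlap.

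The AP-1 transcription factors are pairs of FOS and JUN proteins that bind the TGACTCA element. *FOS* measured 1.69, 1.5, 1.41 and 0.658 in controls 1 to 4 and 3.21, 2.39, 7.90 and 1.96 in hLcn-2 1 to 4. Every treated sample lay above every control, and hLcn-2 3 stood above the other three. These values rest on 53 reads in all controls and 78 in all treated samples, and control 4 held a single read against 9 in its partner, a ratio of 2.97 with an exact 95% interval of 0.412 to 130 for counting error only. On the log2 scale the fold change was 0.95 ± 0.35 (SE, limma), the block gave an adjusted p of 0.168 in limma and 0.0890 in edgeR, and without hLcn-2 3 the other treated values reached 1.96 to 3.21, still above the controls.

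*JUND*, the JUN family member that is expressed most steadily in resting cells, measured 91.6, 92.3, 93.2 and 117 in controls and 98.6, 136, 132 and 137 with hLcn-2. It was higher in 4 of 4 pairs, but hLcn-2 1 lay below control 4. Its log2 fold change was 0.34 ± 0.15 (SE), with adjusted p-values under the block of 0.154 in limma and 0.0687 in edgeR. *JUN*, the classical partner of FOS, measured 255, 293, 129 and 172 in controls and 322, 273, 174 and 193 with hLcn-2, so pair 2 went down and the other three went up. The remaining AP-1 genes did not separate the groups. *JUNB* had means of 40.0 and 42.9, and *FOSB* of 4.03 and 3.95. *FOSL1*, which encodes FRA1, ran from 7.93 to 32.5 in controls and from 4.44 to 23.7 with hLcn-2 and was lower in 3 of 4 pairs, and *FOSL2*, which encodes FRA2, was lower in 3 of 4 pairs with means of 114 and 101. Over the 7 AP-1 genes the median log2 fold change was 0.073, with 4 higher and 3 lower.

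*EGR1*, a zinc finger factor whose promoter is printed above with its 2 CArG boxes, varied widely within both groups. Its controls measured 7.18, 5.03, 17.5 and 7.90 and its treated samples 6.77, 20.4, 39.5 and 4.57. Pairs 2 and 3 went up and pairs 1 and 4 down, and the highest value of each group was that of number 3. The log2 fold change was 0.55 ± 0.56 (SE), and the block gave adjusted p-values of 0.525 in limma, 0.105 in edgeR and 0.810 in DESeq2. Without pair 1, edgeR with the block called *EGR1* at an adjusted p of 0.00607, with a log2 fold change of 1.36, while without pair 2, 3 or 4 the adjusted p was 0.766, 0.364 and 0.0669. *SRF*, itself a target of the CArG box, measured 79.3, 54.1, 55.9 and 84.3 in controls and 121, 63.3, 69.1 and 60.4 with hLcn-2. It was higher in 3 of 4 pairs, the groups overlapped, and hLcn-2 1 stood far above the other treated samples.

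*MYC*, the growth-promoting transcription factor, measured 37.96, 57.5, 29.8 and 14.5 in controls and 51.5, 60.2, 43.0 and 32.2 with hLcn-2. All 4 pairs went up, and within each group the order of the samples was the same, number 2 the highest and number 4 the lowest. The log2 fold change was 0.53 with an SE of 0.34 without the block and 0.14 with it, and the adjusted p with the block was 0.154 in limma and 0.109 in edgeR.

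The IER genes are small immediate early response genes, of which *IER3* bears on cell survival. *IER2* was higher in 4 of 4 pairs, at 56.8, 44.5, 40.9 and 44.8 in controls and 68.9, 50.7, 44.9 and 45.7 with hLcn-2, although in pair 4 the values almost coincided. *IER5* had controls of 59.4, 50.1, 52.5 and 55.3 and treated values of 70.8, 57.1, 30.1 and 26.3. Its controls lay close together, while the treated samples lay on both sides of them, up in pairs 1 and 2 and down in pairs 3 and 4. Its log2 fold change was -0.35 ± 0.27 (SE), with an adjusted p of 0.489 in limma with the block. *IER3* was lower in 3 of 4 pairs, with means of 10.0 and 9.52.

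The KLF genes encode zinc finger factors that bind GC-rich promoter elements. *KLF6* measured 252, 291, 166 and 241 in controls and 191, 219, 141 and 198 with hLcn-2. Each treated sample was below its own control, but the groups overlapped because control 3, like its partner, was low. Its log2 fold change was -0.33 with an SE of 0.19 without the block and 0.075 with it, and the adjusted p with the block was 0.0900 in limma, 0.0443 in edgeR and 0.0305 in DESeq2. In edgeR with the block, leaving out pair 1, 2, 3 or 4 gave adjusted p-values of 0.196, 0.328, 0.0855 and 0.0459, so the call was kept only without pair 4. The printed AU-rich site of *KLF6* is the only one in a 3′ untranslated region of 3543 bases.

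*KLF10*, an early target of transforming growth factor beta, measured 33.2, 45.0, 23.3 and 25.7 in controls and 50.1, 46.5, 33.1 and 32.6 with hLcn-2. All 4 pairs went up, pair 2 by little, and the log2 fold change was 0.36 ± 0.23 (SE) with an adjusted p of 0.231 in limma with the block. *KLF4*, a factor of epithelial differentiation, was also higher in 4 of 4 pairs, at 4.37, 6.23, 3.17 and 1.32 in controls and 4.45, 10.6, 3.95 and 2.17 with hLcn-2. Pairs 1, 3 and 4 differed by less than 1 CPM, and control 4 rested on 2 reads. *KLF2* had means of 3.85 and 4.31 and was higher in 3 of 4 pairs.

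**Figure D2:**
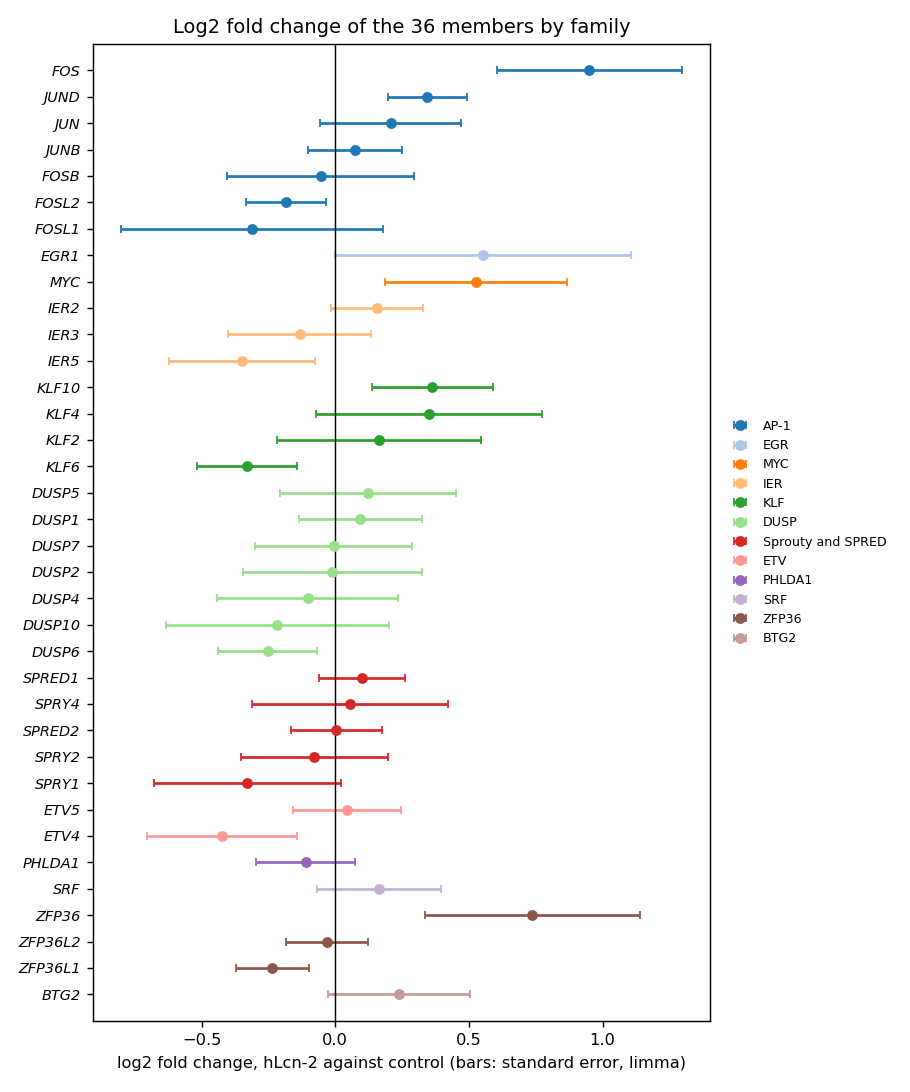
Log2 fold change of hLcn-2 against control (x axis, limma on log2 of the normalized count plus 1) for the 36 genes (y axis), ordered and coloured by family, with bars for the standard error. FOS at 0.95 and ZFP36 at 0.74 lie farthest to the right and ETV4 at -0.42 farthest to the left, and the DUSP and Sprouty and SPRED genes lie on both sides of 0.

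Of the DUSP genes, *DUSP6* and *DUSP7* encode phosphatases of ERK in the cytoplasm, *DUSP5* and *DUSP4* nuclear ones, and *DUSP1*, *DUSP2* and *DUSP10* enzymes with a wider or other choice of MAP kinase. *DUSP6*, a widely used readout of ERK activity, measured 26.1, 24.4, 31.2 and 25.02 in controls and 20.8, 27.8, 24.7 and 16.7 with hLcn-2. In 3 of 4 pairs it was lower and the groups overlapped. The log2 fold change was -0.25 ± 0.19 (SE) and an adjusted p of 0.500 in limma with the block. *DUSP5* was higher in 4 of 4 pairs by small steps, at 117, 138, 71.0 and 53.3 in controls and 126, 151, 73.6 and 61.8 with hLcn-2. The spread between its pairs was far wider than the step within any of them, and its log2 fold change was 0.12 with an SE of 0.33 without the block and 0.082 with it (adjusted p 0.600, limma with the block).

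*DUSP1*, a stress-induced gene with the printed promoter element and 3 AU-rich motifs, ran from 36.2 to 73.6 in controls and from 41.1 to 74.0 with hLcn-2. *DUSP4* and *DUSP7* had means of 3.59 and 3.09, and of 6.09 and 6.41, and *DUSP10* measured 0.987 in hLcn-2 3 against 4.81 to 8.17 in the other treated samples. That low value rests on 2 reads, in a library where 3 reads would be worth 1.48. *DUSP2* had 0 reads in control 4, where 3 reads would be worth 1.98, and at most 1.80 in any sample. Over the 7 phosphatase genes the median log2 fold change was -0.011, with 2 higher and 5 lower.

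*SPRY1*, *SPRY2* and *SPRY4* encode Sprouty proteins and *SPRED1* and *SPRED2* their relatives, which act with neurofibromin on RAS. None of the 5 went one way in 4 of 4 pairs, and their median log2 fold change was 0.0034. *SPRY1* had the largest of them at -0.33 ± 0.35 (SE), with 1.55, 1.58, 3.17 and 3.29 in controls and 0.891, 0.845, 3.95 and 1.74 with hLcn-2. Pair 3 went up and the other three went down, on 5 to 22 reads per sample. *SPRED1* ran from 78.4 to 98.7 in controls and from 67.2 to 103 with hLcn-2, and the means of *SPRED2* were both 25.8.

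Among the ERK-dependent ETS factors, *ETV4* was lower in 4 of 4 pairs, at 3.80, 5.18, 5.64 and 4.61 in controls and 2.85, 4.93, 4.44 and 1.74 with hLcn-2. In pair 2 the samples differed little, control 4 rested on 7 reads, and the log2 fold change was -0.42 ± 0.28 (SE) with an adjusted p of 0.484 in limma with the block. *ETV5* had means of 51.0 and 54.1 and was higher in 3 of 4 pairs. *PHLDA1*, a pleckstrin homology protein induced by ERK signalling, measured 313, 358, 234 and 244 in controls and 287, 312, 273 and 192 with hLcn-2. In 3 of 4 pairs it was lower, and the log2 fold change was -0.11 ± 0.18 (SE).

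Of the 3 ZFP36 genes, *ZFP36* alone passed a test. It measured 10.4, 10.4, 8.11 and 3.95 in controls and 24.5, 13.7, 17.8 and 5.44 with hLcn-2. All 4 pairs went up, by most in pairs 1 and 3. The groups overlapped because hLcn-2 4, like its partner, was low, on 25 reads against 6 in control 4. The log2 fold change was 0.74 with an SE of 0.40 without the block and 0.19 with it, and the adjusted p with the block was 0.124 in limma, 0.0148 in edgeR and 0.0375 in DESeq2. In edgeR with the block, leaving out pair 1, 2, 3 or 4 gave adjusted p-values of 0.291, 0.0165, 0.0591 and 0.0225, so the call was lost without pair 1 or pair 3.

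*ZFP36L1*, a paralogue that also binds AU-rich mRNA, measured 850, 882, 746 and 724 in controls and 757, 678, 721 and 568 with hLcn-2. All 4 pairs went down, pair 3 by little. Limma gave a log2 fold change of -0.24, its SE 0.14 without the block and 0.077 with it, and the adjusted p under the block 0.237 in limma and 0.186 in edgeR. *ZFP36L2* had means of 73.1 and 72.0. *BTG2*, an antiproliferative gene that acts with the deadenylases that shorten mRNA tails, measured 2.82, 2.85, 3.00 and 3.29 in controls and 2.49, 3.66, 6.42 and 3.04 with hLcn-2. Its controls were nearly equal, and hLcn-2 3 stood far above them, on 13 reads. The adjusted p of *BTG2* was 0.737 in limma with the block.

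**Figure D3:**
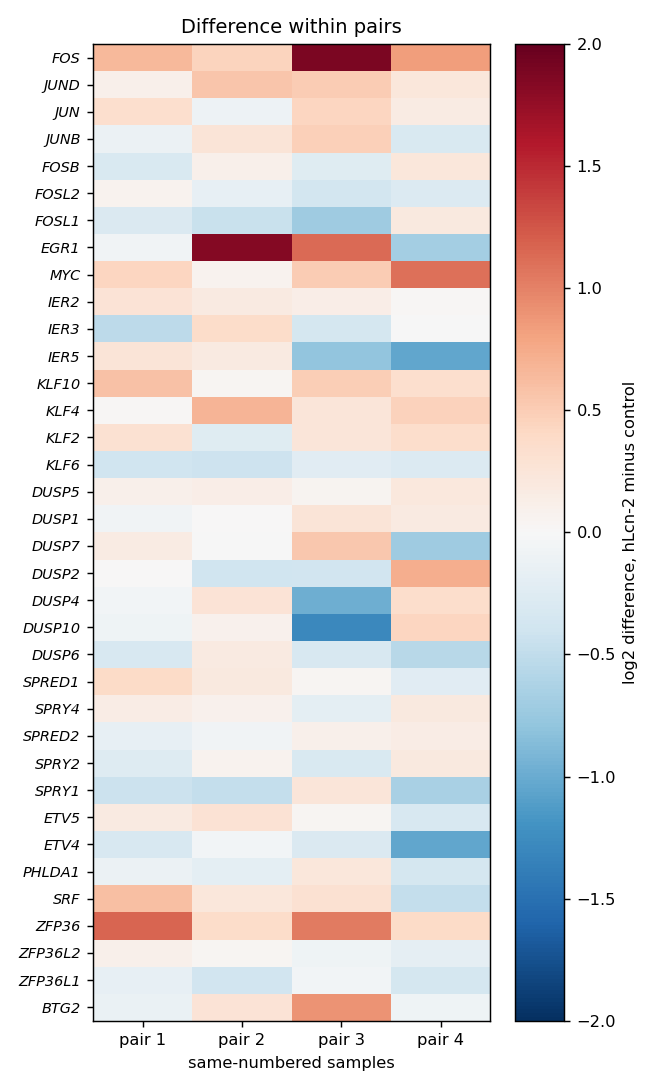
Difference of hLcn-2 minus control within each same-numbered pair (columns) for the 36 genes (rows), on the scale of log2 of the normalized count plus 1, red for higher and blue for lower with hLcn-2. FOS, ZFP36, JUND, MYC, KLF10, KLF4, IER2 and DUSP5 are red in all 4 columns and KLF6, ETV4 and ZFP36L1 blue in all 4, though some cells are close to white, while EGR1, IER5 and DUSP10 change colour between pairs.

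The 36 genes also varied between the pairs. The range of the 4 pair means had a median of 0.797 log2 units over the 36 and of 0.575 over all genes tested, and it was over 1 unit in 12 of the 36 (33.3%) beside 16.4% of all genes. Among genes with a mean of at least 10 it was over 1 unit in 5 of 22 (22.7%) beside 11.7% of all such genes, and among those with a mean under 10, which rest on fewer reads, in 7 of 14 beside 22.9%. These shares are a description and were not tested. The widest ranges were those of *FOSL1* (2.04), *EGR1* (1.96), *KLF4* (1.75), *ZFP36* (1.60) and *DUSP10* (1.52). Pair 2 held the highest mean in 18 of the 36, pair 1 in 9, pair 3 in 8 and pair 4 in 1, while over all genes tested the shares were 25.4%, 20.7%, 31.0% and 22.9%. *EGR1*, *SPRY4*, *FOS* and *SPRY1* were among the 8 highest in pair 3, the pair with the highest mitochondrial share. Lowest in pair 3 were *FOSL1*, *FOSB*, *DUSP10*, *JUN*, *IER2*, *KLF6* and *KLF10*. Number 4 includes the shallowest library, control 4, but its partner was deeper than hLcn-2 3. The part of depth and of mitochondrial reads in these differences was not tested.

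**Figure D4:**
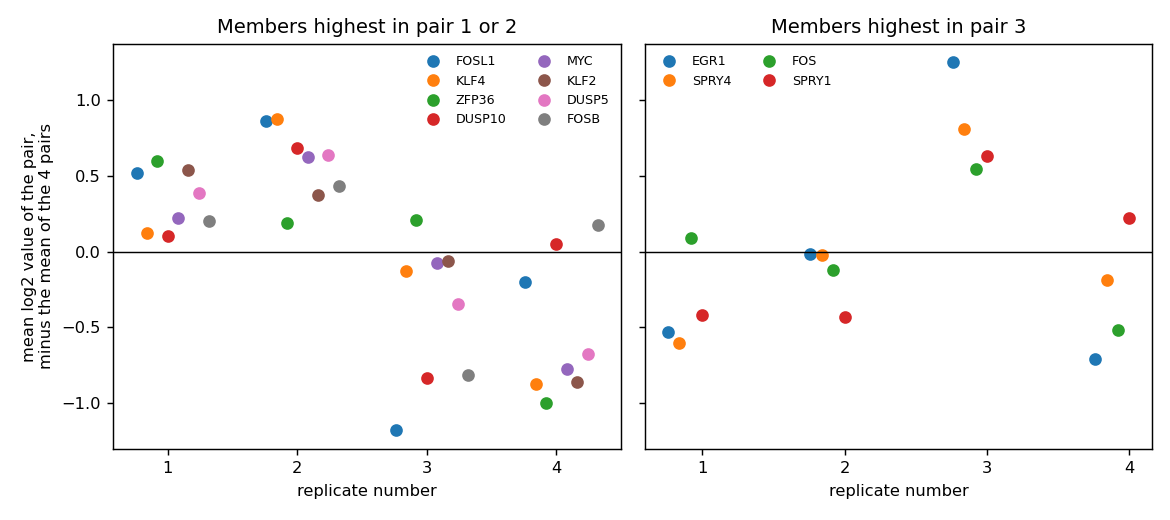
Mean log2 value of the 2 samples of each pair minus the mean of the 4 pairs (y axis, log2 of the normalized count plus 1) against the replicate number (x axis), for the 12 genes whose pair means span over 1 log2 unit. Most genes in the left panel are high at numbers 1 and 2 and low at number 4, FOSL1, FOSB and DUSP10 are lowest at number 3, and the 4 genes in the right panel are highest at number 3.

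Counting may mix neighbours for 10 of the 36 genes, whose exons overlap those of another gene in GENCODE 44. For *ETV5* the other gene is on the same strand, and for *DUSP6*, *ETV4*, *IER2*, *IER3*, *JUNB*, *KLF4*, *MYC*, *PHLDA1* and *ZFP36L2* on the opposite strand. Whether the counting used strand is not given in the sources used here, and without strand the reads of both partners cannot be told apart.

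The lists of genes that signal to these targets held few calls, in fits that called few genes at all. Limma called 0.0% of all genes tested, limma with the block 0.282% and edgeR with the block 1.49%. Of the 21 genes of the RAS-RAF-MEK-ERK cascade 0 were called by limma, blocked or not, or by edgeR with the block, and 11 were higher and 10 lower. The smallest p under the block was that of *SHOC2*, a scaffold that helps to activate RAF, with 71.5 ± 12.9 (SD, n = 4) in controls, 84.0 ± 17.3 (SD, n = 4) with hLcn-2 and an adjusted p of 0.339 in limma. The 13 genes of the JNK and p38 kinases also gave 0 calls, the smallest p being that of *MAP3K1*, a kinase upstream of JNK, at 64.4 ± 4.13 and 51.9 ± 4.99. *MAP3K1* was lower in 4 of 4 pairs without overlap of the groups, with an adjusted p of 0.188 in limma with the block. The 5 SRF partners gave 0 calls, led by *ELK1*, the ETS factor that ERK phosphorylates on SRF, at 18.3 ± 4.18 and 25.2 ± 6.80, higher in 4 of 4 pairs with an adjusted p of 0.239. At an unadjusted p of 0.05 or less, limma with the block gave 1 of the 21, 1 of the 13 and 2 of the 5 genes of these lists, beside 12.2% of all genes.

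A further list held 36 other immediate early and ERK-induced genes, of which 31 were tested. Limma called 0 of them, blocked or not, with 4 higher and 4 lower at an unadjusted p of 0.05 or less under the block (12.2% of all genes), and edgeR with the block called 3, beside 1.49% of all genes. *AREG*, which encodes the EGF receptor ligand amphiregulin, fell from 28.9 ± 15.3 (SD, n = 4) to 18.6 ± 11.5 (SD, n = 4), with an adjusted p of 0.0152 in edgeR and 0.0569 in limma with the block. *EPHA2*, an ephrin receptor, rose from 30.3 ± 17.9 to 48.2 ± 29.0 with an adjusted p of 0.0350 in edgeR with the block, and *PLAUR*, the urokinase receptor, rose from 56.3 ± 28.0 to 75.2 ± 42.1 with one of 0.0394. The last 2 were named after their values were seen. Each of the 3 went one way in 4 of 4 pairs, while their groups overlapped.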

How the data were processed

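Total RNA of 4 control and 4 hLcn-2 samples of CAKI1 cells was made into QuantSeq 3′ libraries with unique molecular identifiers (UMI) and sequenced single-end for 75 cycles. According to their methods, the authors wrote each UMI into its read name, aligned with STAR to GRCh38, collapsed reads by UMI, counted per gene with HTSeq and removed genes without counts. The deposited values are a signal, the authors' normalized counts as CPM of a library size adjusted with edgeR. All 134256 values were whole multiples of what 1 read is worth in their sample, within 0.01 of a whole number, so reads were recovered, and 1 cell with a decimal comma was read as a decimal point.

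The genes and lists were chosen with earlier results of these data known. Limma 3.58.1 in R 4.3.3, with an intensity trend, was run on log2(value + 1), so fold changes of low genes are understated, on the 15593 genes that reached 1 CPM in 2 or more samples, without a block and with Benjamini-Hochberg adjustment over them. Alternatives were the replicate number as a block, pseudocounts of 0.1 and 5, no filter, a mean of at least 10 CPM, CPM of the column total, DESeq2 size factors, no trend, edgeR 4.0.16 quasi-likelihood and DESeq2 1.42.0 Wald tests on the recovered reads with and without the block, and leaving out samples or pairs. Tests are two-sided, and the scripts were tested on simulated data. The replicate numbers come from the sample titles. They were taken as pairs because every correlation of same-numbered deviations was over 0.1 (mean 0.497), although the labels do not say what a number stands for, nor that the samples are separate cultures, so p-values measure the spread between these samples, which may be technical.

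All 38 genes of the rule are named, with values in every sample for those called in a fit with the block, not overlapping, or one way in 4 of 4 pairs, and for at least 1 per family. From each pathway list the called genes are named or, with none, the one with the smallest p under the block. Intervals and limits from reads cover counting error only. Promoters are from RefSeq (GRCh38.p14) and untranslated regions from GENCODE 44. Columns of no sample were 0.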

Additional observations from a re-analysis of the deposited data

Results flagged for a closer look

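Each group of 4 samples was examined for 1 value set apart, by whether its gap to the nearest of the others, as a share of the whole range, exceeded Dixon's critical value for 4 samples. Of 72 groups, 4 met this, where about 1 in 20, or 3.6, would by chance.

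Control 2 held *JUNB* at 35.85, below the other controls at 41.06 to 41.48, and control 4 held *JUND* at 117.2, above the other controls at 91.64 to 93.25. The sample hLcn-2 1 held *JUND* at 98.6, below the other treated samples at 132.3 to 136.8, and *SRF* at 120.9, above the others at 60.45 to 69.12. Both *JUND* values lie between the remaining controls and the remaining treated samples, and they are the ones by which its groups overlap.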

How the results depend on the processing

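Of 418 values recomputed over all samples, 398 kept their direction and side of the threshold, 4 passed it and 16, of 6 genes, reversed. DESeq2 with the block gave no adjusted p for 14 of the 36 genes, and these were counted as not passing the threshold. Genes called rose from 0 to 44 with the replicate block, 233 in edgeR with the block and 181 in DESeq2 with the block, and genes of the set called from 0 to 2 in edgeR and 2 in DESeq2 with the block, while the block changed no call among them in limma. The median over the set was 0.060 with a pseudocount of 0.1, 0.084 at a mean of at least 10 CPM, 0.081 in edgeR and 0.071 in DESeq2 with the block, and -0.0066 with CPM of the column total, where 9 genes in place of 11 went one way in 4 of 4 pairs.

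The reversals were of differences that were near 0 in limma without the block. *DUSP7* went to 0.02 with a pseudocount of 5, 0.03 in edgeR, 0.11 in edgeR with the block, 0.02 in DESeq2 and 0.07 in DESeq2 with the block. *SPRED2* went to -0.03 with CPM of the column total, -0.02 in edgeR, -0.03 in edgeR with the block, -0.05 in DESeq2 and -0.02 in DESeq2 with the block. *FOSB* went to 0.02 in edgeR and 0.01 in DESeq2, *SPRY4* to -0.14 and -0.11, *DUSP2* to 0.42 with a pseudocount of 0.1 and *ZFP36L2* to 0.0016 in edgeR with the block. Control 4 held 0 reads of *DUSP2*, and the cause of these reversals was not tested.

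Leaving out a sample or pair gave 0 to 221 genes called, 0 to 2 of the set called, 2 to 5 of it without overlap (5.56% to 13.9%, beside 5.63% to 9.57% of all genes with 3 samples a group), 13 to 15 one way in all remaining pairs (36.1% to 41.7%, beside 30.5% to 36.2%) and a median of -0.0769 to 0.139, and 69 of 576 values, of 20 genes, reversed. The leave-out fits of edgeR with the block were chosen after seeing the data. The log2 fold changes of these 20 ranged from -0.06 to 0.28 (*DUSP1*), -0.49 to 0.24 (*DUSP10*), -0.42 to 0.14 (*DUSP2*), -0.40 to 0.19 (*DUSP4*), -0.12 to 0.33 (*DUSP5*), -0.19 to 0.29 (*DUSP7*), -0.11 to 0.21 (*ETV5*), -0.29 to 0.25 (*FOSB*), -0.64 to 0.15 (*FOSL1*), -0.40 to 0.13 (*IER3*), -0.59 to 0.02 (*IER5*), -0.01 to 0.39 (*JUN*), -0.08 to 0.20 (*JUNB*), -0.15 to 0.42 (*KLF2*), -0.22 to 0.04 (*PHLDA1*), -0.10 to 0.07 (*SPRED2*), -0.30 to 0.05 (*SPRY2*), -0.17 to 0.37 (*SPRY4*), -0.06 to 0.41 (*SRF*) and -0.11 to 0.08 (*ZFP36L2*). Those of *FOS* (0.61 to 1.51), *ZFP36* (0.46 to 1.14), *JUND* (0.28 to 0.46), *MYC* (0.17 to 0.81) and *KLF6* (-0.49 to -0.20) kept their sign. Depth limits the 14 genes with a mean under 10, since in control 4 a single read was worth 0.658 CPM.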
